A study of Mus musculus with 18 samples.

Results

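The genes of the cytosolic translation initiation and elongation factors were examined in RNA-Seq counts of colon crypt epithelial cells from 18 mice. Members were the symbols that begin with Eif1 to Eif6 or with Eef1 or Eef2, without the eIF2alpha kinases, the eIF4E binding proteins, Eif4enif1, the X- and Y-linked copies of Eif2s3, Eef2k and pseudogenes. The count table holds 24047 rows, of which 52 matched, and 48 of these reached 10 counts in at least 3 of the 18 libraries. The other 4 were Eif4e1b, Eif3j1 and Eif3j2, which had 0 counts in every library, and Eef1a2, which had 1 count in GF-WT 2, 19 counts in COLONIZED-Ern2-/- 2 and none elsewhere. Mice were C57BL/6, either WT or with a whole-body deletion of Ern2 (Ern2-/-), which encodes the ER stress sensor IRE1beta of mucosal epithelium. They formed 6 groups of 3 libraries: germ free (GF-WT, GF-Ern2-/-), germ free and then colonized for 14 days with cecal contents of specific pathogen free WT mice (COLONIZED-WT, COLONIZED-Ern2-/-), and conventionally raised (CONV-WT, CONV-Ern2-/-). Crypts were released with EDTA and not sorted, so a library can hold other cells, and fewer cells of a type cannot be told apart from less RNA per cell. The sources used here do not give ages for these mice.

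Translation begins when eIF1, eIF1A, eIF3, eIF5 and the eIF2 complex, which carries the initiator tRNA, load the small ribosomal subunit. eIF4E, eIF4G and the helicase eIF4A bring that subunit to the capped mRNA, and eIF5B joins the large subunit once the start codon is found. eEF1A then delivers each aminoacyl-tRNA, eEF2 moves the ribosome along, and eIF5A, which carries the modified residue hypusine, relieves stalls. eIF2B recharges eIF2 with GTP and is blocked when eIF2alpha is phosphorylated, which is how ER stress lowers protein synthesis in secretory cells such as goblet cells.

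Several libraries stood apart. Library totals were 13.8 to 23.2 M counts in GF and COLONIZED groups and 14.9 to 15.9 M in CONV-WT 1 and 2 and CONV-Ern2-/- 1, but 8.20, 7.08 and 5.87 M in CONV-WT 3 and CONV-Ern2-/- 2 and 3. In those 3 libraries the summed level of 11 mesenchymal markers was 31.35, 18.35 and 25.23 counts-per-million (CPM), against 3.67 to 7.72 in the other 15, with 0 of the 11 markers at 0 in the series, and 7 crypt base stem cell markers summed to 314.7 to 336.2, the lowest of all libraries. The epithelial markers summed to 10680 to 15190 in all 18 libraries. Normalised Ern2 counts were 1909 to 3100 in the 9 WT libraries, and they were 2877 and 3336 in GF-Ern2-/- 1 and 3 and 2567 in COLONIZED-Ern2-/- 1, so the counts of these 3 libraries go against their label. The other 6 libraries labelled Ern2-/- lay below every WT library, but COLONIZED-Ern2-/- 3 (1885) only just, and CONV-Ern2-/- 2 and 3 (1622 and 1487) and COLONIZED-Ern2-/- 2 (1325) also kept many counts, with 998.3 in CONV-Ern2-/- 1 and 386.1 in GF-Ern2-/- 2. Gene totals cannot show which exons were read, and directions between genotypes therefore refer to labels. A library was given the Y-linked pattern where the summed counts of Ddx3y, Kdm5d and Uty exceeded those of Xist. No GF-WT library had the pattern and all 3 libraries of CONV-Ern2-/- had it. The other groups held both kinds (COLONIZED-WT 1 and 3, CONV-WT 1, and replicates 1 and 2 of GF-Ern2-/- and COLONIZED-Ern2-/- had it). The 48 members together took 1.547% to 2.271% of a library's counts.

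Eif5b, Eif4e, Eif2s1, Eif5a, Eif2b2 and Eif4a3 passed the DESeq2 test in both COLONIZED-WT and CONV-WT against GF-WT, while the abundant elongation factors Eef1a1 and Eef2 did not pass in either. Both comparisons use the same GF-WT libraries, and edgeR called 0 members in either. When 1 library was left out of CONV-WT against GF-WT, Eif2b2 passed in 0 of 6 fits and Eif5b in 3. Eif4e, Eif2s1, Eif5a and Eif4a3 passed in 1 of the 6 each. In COLONIZED-WT against GF-WT, Eif5a passed in 6 of 6 such fits and Eif2b2 in 4. Eif5b, Eif2s1 and Eif4a3 passed there in 3 each and Eif4e in 1. The shares of all genes that passed are given with each comparison below.

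The members differed widely in level. Levels between genes are given as transcripts-per-million (TPM), computed over the exon length of each gene, as the median and range of 18 libraries. That length joins the exons of all annotated transcripts of a gene, whether or not these cells use them, so the order of genes depends on it. Eef1a1, the tRNA carrier of elongation, was at 6742 TPM (4890 to 8249) and made up 34.64% of the TPM of all 48 members, and Eef2, the translocase, was at 3908 TPM (3201 to 4727) and made up 20.63%. These ranges did not overlap each other, and both lay above the range of every other member. Next came Eef1b2, an exchange factor for eEF1A, at 707.5 TPM (494.8 to 825.2) and Eif5a at 676.9 (485.8 to 809.3), whose ranges overlapped. Initiation factors lay lower, with Eif3h at 520 TPM and Eif3f at 509.4 as the highest of the eIF3 subunits and Eif3e, at 75.1, as the lowest. The length used was 1612 bases for Eif3h and 6719 for Eif3e. In normalised counts Eif3e, with a GF-WT mean of 2228, lay above Eif3m, with 1266. Eif4e, the cap-binding protein, was at 27.09 TPM (19.33 to 48.76), against 292.1 (235.5 to 344.9) for the helicase Eif4a1 and 297.9 (177.9 to 393.6) for the scaffold Eif4g1, and its range overlapped neither. The lowest members were Eif2b3, a subunit of eIF2B, at 6.526 TPM and Eif5a2, a paralog of Eif5a, at 0.2402.

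**Figure D1:**
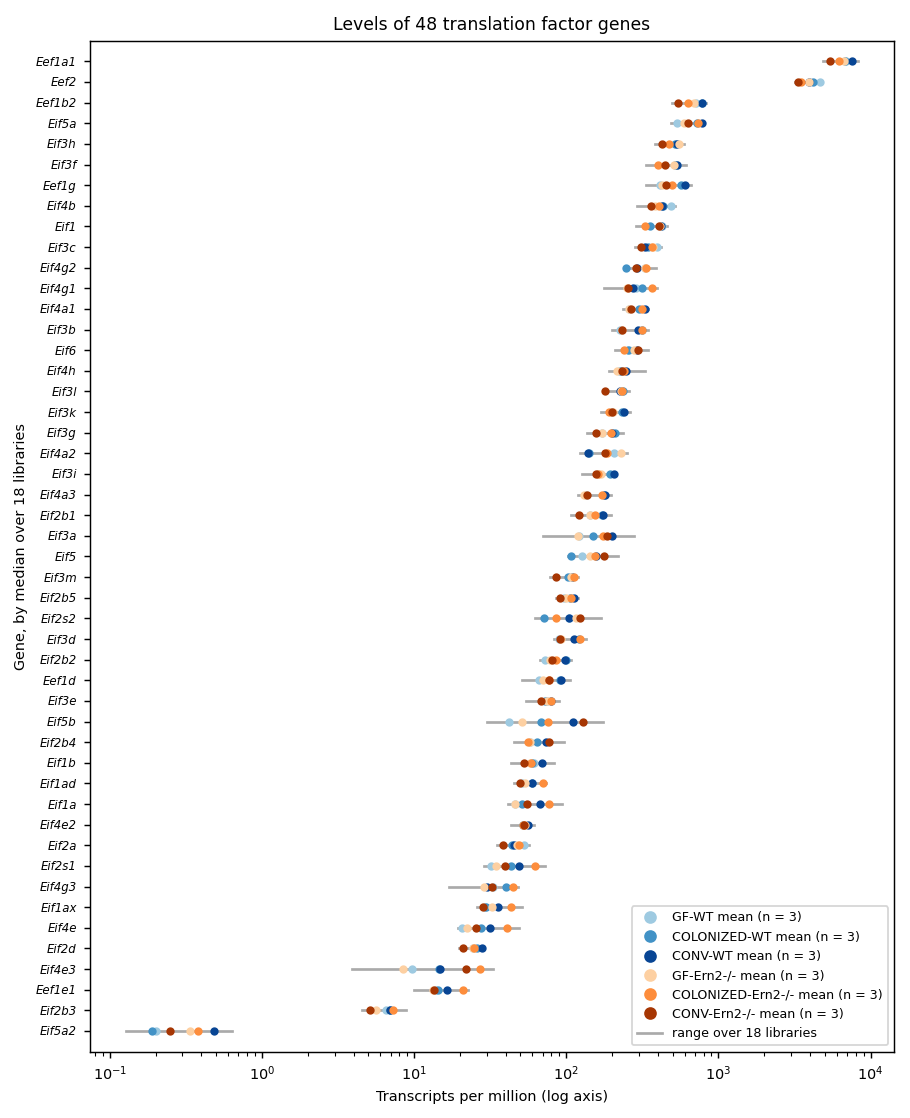
TPM (log axis) of the 48 genes, ordered by their median over 18 libraries, with points for the mean of each group (n = 3) and grey bars for the range over libraries. Eef1a1 and Eef2 stand above all others at medians of 6742 and 3908, and Eif5a2 lies lowest at 0.2402.

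Of the paralogs known for restricted expression, Eef1a2, Eif4e1b and Eif5a2 were rare or absent in these crypts, and Eif4e3 was not. Eef1a2, the eEF1A form of muscle and neurons, was at 0 in 16 libraries. A count of 0 allows up to 3 counts, or 0.13 to 0.511 CPM over the 18 libraries. Eif4e1b, known from oocytes, was at 0 in 18 libraries. Eif5a2 had 2 to 14 counts per library and reached 10 in 4 libraries, so its fold changes carried standard errors of 0.66 or more in the WT comparisons with GF-WT. Eif4e3, a cap-binding paralog of Eif4e, was counted in every library at 15.73 TPM (3.924 to 32.99). In normalised counts its highest library was 8.01 times its lowest, the widest relative range of all members. The 0 counts of Eif3j1 and Eif3j2, the copies of the loosely bound eIF3j subunit, stand beside 35% and 87.4% of 75-base stretches of their transcripts that also occur in another gene, and the part of this sharing was not tested. Such sharing was 38% for Eef1g, 26.6% for Eef1a1 and 25.4% for Eif4a1, so their counts are less certain, and 0% for Eif5b, Eif3b, Eif2b2 and Eif3d.

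Start site sequences are shown for 3 members that passed a test with microbes and, beside them, for the uncalled cap-binding scaffold Eif4g1 and the uncalled translocase Eef2, because translation factor genes are known targets of MYC, which binds the hexamer CACGTG. Promoters came from RefSeq (GRCm38.p6, the same assembly as mm10), as 250 bases before to 50 after each annotated start, and 38 of the 48 members had an entry. The hexamer, which reads the same on both strands, was found at any start of 11 of these 38 genes (28.9%). It was found in 8.1% of all 27025 genes with an entry and in 11.7% of the 9928 genes with an entry that reached the same count minimum in these libraries. Genes with several annotated starts had more sequence searched. Below, each run is given 5′ to 3′ on the strand of the gene with the hexamer in capitals, and Eif4e and Eif5a are the members that passed in both WT comparisons.
Eif4e, chr3:138527028-138527057, plus strand: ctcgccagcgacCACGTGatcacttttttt
Eif5a, chr11:69921443-69921472, minus strand: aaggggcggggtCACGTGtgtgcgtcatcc
Eif4a1, chr11:69672595-69672624, minus strand: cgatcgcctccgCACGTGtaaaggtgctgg
Eif4g1, chr16:20672661-20672690, plus strand: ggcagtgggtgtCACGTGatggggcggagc
Eef2, chr10:81176576-81176605, plus strand: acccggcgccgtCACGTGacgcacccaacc
In these windows the hexamer begins 228, 74, 189, 54 and 43 bases before an annotated start, in the order shown. Of the members called in either WT comparison with GF-WT, 10 had an entry and 3 of them held the hexamer, Eif4e, Eif5a and Eif4a1. Eef2 and Eif4g1 hold it too and did not pass in those comparisons. A match of letters is a description and was not tested for binding.

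To examine 14 days of colonization, COLONIZED-WT was compared with GF-WT. DESeq2 called 11 of 48 members at an adjusted p under 0.01, 9 higher and 2 lower. This is 22.9% of the members, and of all 13635 tested genes 18.3% were called, 9.35% higher and 8.97% lower, so the members' share was near the background. edgeR called 0 members and 4.94% of all genes, with 16 members and 41.8% of all genes at an unadjusted p under 0.05. Over the 48 members the log2 fold change had a median of 0.13, with 31 above 0, against -0.01 over all tested genes, and it was 0.0464 without GF-WT 3. Groups did not overlap in 19 members that were higher and 9 that were lower, against 23.0% and 23.5% of all tested genes.

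Among factors that assemble the initiation complex, Eif5b changed most. This GTPase, which joins the ribosomal subunits, lies on chr1:37998010-38055579 (plus strand, mm10). Its normalised counts (scaled by DESeq2 size factors) were 2103, 1817 and 1526 in GF-WT libraries 1, 2 and 3 and 3816, 2544 and 2443 in COLONIZED-WT. COLONIZED-WT 1 was highest and the groups did not overlap (log2 fold change 0.70, SE 0.21, DESeq2 adjusted p 0.0047), but without COLONIZED-WT 1 the value was 0.47 with an adjusted p of 0.0505. Eif2s1, the eIF2alpha subunit whose phosphorylation halts initiation, had 758.2, 677.4 and 669.2 in GF-WT and 951.2, 902.7 and 1007 in COLONIZED-WT, where every library was higher (0.45, SE 0.13, adjusted p 0.00312). Eif2s2, the eIF2beta subunit of the same complex, moved the other way, from 2863, 3239 and 3242 to 2116, 2414 and 1933 without overlap (-0.52, SE 0.14, adjusted p 0.00158). Eif2b2, the beta subunit of the exchange factor eIF2B, rose from 593.8, 656.4 and 568.5 to 867.1, 811.6 and 820.8 (0.47, SE 0.13, adjusted p 0.00239), and it was the only eIF2B subunit of 5 that passed. Eif2b5, the catalytic subunit, had 1121, 1178 and 1014 in GF-WT and 1202, 1192 and 1280 in COLONIZED-WT, and did not pass (0.16, SE 0.12, adjusted p 0.344).

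Of the 12 eIF3 subunits measured, which form the scaffold on the small subunit, Eif3b and Eif3d rose and the other 10 did not pass. Eif3b (chr5:140419328-140443360, plus strand), a core subunit, had 3443, 3487 and 3094 in GF-WT and 4914, 4411 and 4703 in COLONIZED-WT, so that the lowest colonized library was well above the highest germ-free one (0.49, SE 0.12, adjusted p 0.000269). Eif3a, the largest core subunit, had 5169, 4772 and 4042 against 6888, 5327 and 5142, and these groups overlapped (0.32, SE 0.17, adjusted p 0.131). The median of the 12 subunits was 0.14, from -0.17 in Eif3c to 0.49.

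In the cap-binding group of 10 members, Eif4e rose and Eif4g2 fell. Eif4e had 583.1, 533.1 and 526.2 in GF-WT and 723, 705.1 and 779.5 in COLONIZED-WT, without overlap (0.44, SE 0.13, adjusted p 0.0048). Its partners at the cap were closer between groups. Eif4a1 had 5132, 4889 and 4732 against 5773, 5776 and 5778 (0.24, SE 0.10, adjusted p 0.0554), and Eif4g1 had 9283, 8793 and 9715 against 10140, 9977 and 10690 (0.16, SE 0.11, adjusted p 0.276). Both were higher in every COLONIZED-WT library, and neither passed. Eif4g2, an eIF4G relative that lacks the eIF4E binding site, had 16240, 13820 and 14530 against 10390, 11210 and 11960 and thus lay lower in every colonized library (-0.40, SE 0.12, adjusted p 0.00698). Eif4a3, the DEAD-box helicase of the exon junction complex, went from 1264, 1344 and 1201 to 1740, 1631 and 1642 (0.41, SE 0.12, adjusted p 0.0034). Eif4g2, Eif4a3 and Eif3d fell outside the naming rule and are named because they were called.

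Among the elongation factors Eif5a and Eef1g rose. Eif5a (chr11:69916714-69921958, minus strand) had 5639, 6057 and 5188 in GF-WT and 7931, 7515 and 7683 in COLONIZED-WT, a gap wider than the range within either group (0.46, SE 0.11, adjusted p 0.000533). Eef1g, a structural subunit of the eEF1 exchange complex, had 5056, 5340 and 3885 against 7049, 6370 and 6447, with GF-WT 3 the lowest (0.49, SE 0.15, adjusted p 0.00817). The most abundant factors showed no such gap. Eef1a1 was at 76560 ± 6553 (SD, n = 3) in GF-WT and 75650 ± 2261 in COLONIZED-WT (log2 fold change -0.01, SE 0.12), with a sign that turned under other scalings. Eef2 had 64550, 71660 and 70600 against 63720, 63280 and 58570 (-0.15, SE 0.11, adjusted p 0.335), and Eef1b2 had 7883, 9590 and 6671 against 8827, 8793 and 8703 (0.13, SE 0.15, adjusted p 0.547). Eif6, which keeps free large subunits apart, had 3077, 3124 and 3099 against 3004, 3443 and 2785, with an adjusted p of 0.996.

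**Figure D2:**
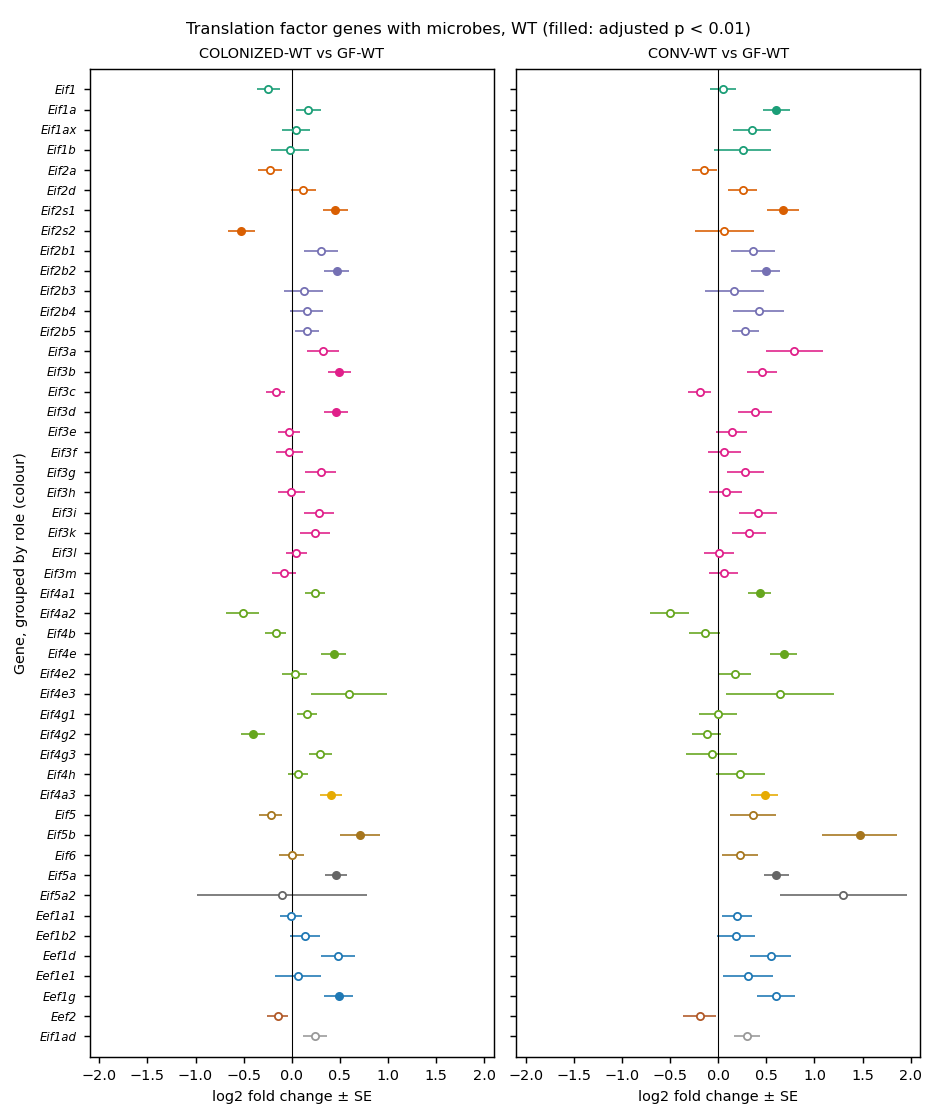
Log2 fold change ± SE (horizontal axes) of the 48 genes in COLONIZED-WT and CONV-WT against the same 3 GF-WT libraries, with colours for roles and filled points for a DESeq2 adjusted p under 0.01. Filled points number 11 on the left, 9 of them above 0, and 8 on the right, all above 0, with Eif5b farthest right in both at 0.70 and 1.47.

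When a library was left out, fewer of the 11 members stayed called with colonization. They were 2 without COLONIZED-WT 1, 3 without COLONIZED-WT 3, 7 without COLONIZED-WT 2 or GF-WT 2, 9 without GF-WT 3 and 10 without GF-WT 1. Without COLONIZED-WT 3 or GF-WT 3, Eif4a2 was called in addition (-0.64 and -0.61). In these fits 9.22% (without COLONIZED-WT 1) to 20.2% (without GF-WT 1) of all tested genes were called. Eif3b and Eif5a were called in all 6 of these fits. No GF-WT library had the Y-linked pattern, and COLONIZED-WT 1 and 3 had it. With the pattern as a covariate the estimate thus rested on COLONIZED-WT 2 alone, so no call and no loss of a call is read from that fit. Its log2 fold changes were 0.41 for Eif3b, 0.43 for Eif5a and 0.50 for Eif5b. The part of the Y-linked pattern in these calls was not tested further. The 12 proliferation markers summed to 514.6 to 891.4 CPM in GF-WT and 1364 to 1543 in COLONIZED-WT, and all 12 were called higher. Goblet cell markers summed to 13640 to 20540 CPM in GF-WT and 23070 to 29560 in COLONIZED-WT. The part of either list in these results was not tested.

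To examine the conventional microbiota, CONV-WT was compared with the same 3 GF-WT libraries, so the colonized and conventional results share their controls. DESeq2 called 8 of 48 members (16.7%), all higher, where 11.0% of 13874 tested genes were called and 5.68% were called higher. edgeR called 0 members and 0.175% of all genes, with 17 members and 28.7% of all genes at an unadjusted p under 0.05 and 16 of the 17 higher. The members' median log2 fold change was 0.28, with 41 of 48 above 0, whereas 49.9% of all tested genes lay above 0. Groups did not overlap in 21 members that were higher, against 18.1% of all tested genes in that direction, and in 3 that were lower, against 18.1%.

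Eif5b again showed the largest called value, with 3018, 4184 and 7956 in CONV-WT 1, 2 and 3 (log2 fold change 1.47, SE 0.39, adjusted p 0.00242). CONV-WT 3 was far above CONV-WT 1 and 2, and without it the value was 0.99 (SE 0.22, adjusted p 7.01e-05). Eif4e had 920.4, 882 and 845.5, all above the 526.2 to 583.1 of GF-WT (0.68, SE 0.14, adjusted p 3.15e-05). Eif2s1 had 1202, 1196 and 973.3 (0.67, SE 0.17, adjusted p 0.00118), lowest in CONV-WT 3 and still above GF-WT. Eif1a, which scans for the start codon together with eIF1, had 922.6, 795.1 and 829.6 in GF-WT against 1284, 1336 and 1280 with a conventional microbiota, a gap wider than the range of either group (0.61, SE 0.14, adjusted p 0.000259). Eif5a had 8874, 8406 and 8528 (0.60, SE 0.13, adjusted p 0.000124) and Eif2b2 had 840.2, 825.7 and 916.7 (0.49, SE 0.15, adjusted p 0.00915), both without overlap with GF-WT. Eif4a3 (0.48, SE 0.15, adjusted p 0.0088) and Eif4a1 (0.43, SE 0.12, adjusted p 0.00328) completed the calls and are named beyond the rule for that reason.

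Every role group of more than 1 member had a median above 0 in CONV-WT. The 5 eIF2B subunits had a median of 0.36 with 1 called, the 4 eIF1 and eIF1A genes 0.30 with 1 called, and the 12 eIF3 subunits 0.21 with none called. The 5 Eef1 genes, among them Eef1e1, which is not a subunit of eEF1, had a median of 0.31 with none called. Of these, Eef1g was nearest at 0.60 (adjusted p 0.0183). The 10 cap-binding genes had a median of 0.09 and values from -0.50 in Eif4a2, the helicase paralog (adjusted p 0.0611), to 0.68 in Eif4e. Eef2, which moves the ribosome, was at -0.19 (adjusted p 0.491). The 9 members listed as terminal oligopyrimidine mRNAs, a class known to tie translation to mTORC1, were listed from background knowledge, and of the 5 with a RefSeq promoter entry 1, Eif3f, had a C and 4 more pyrimidines at the annotated start. They had a median of 0.14 with none called, and 1 of the 9, Eef1g, was called in COLONIZED-WT.

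**Figure D3:**
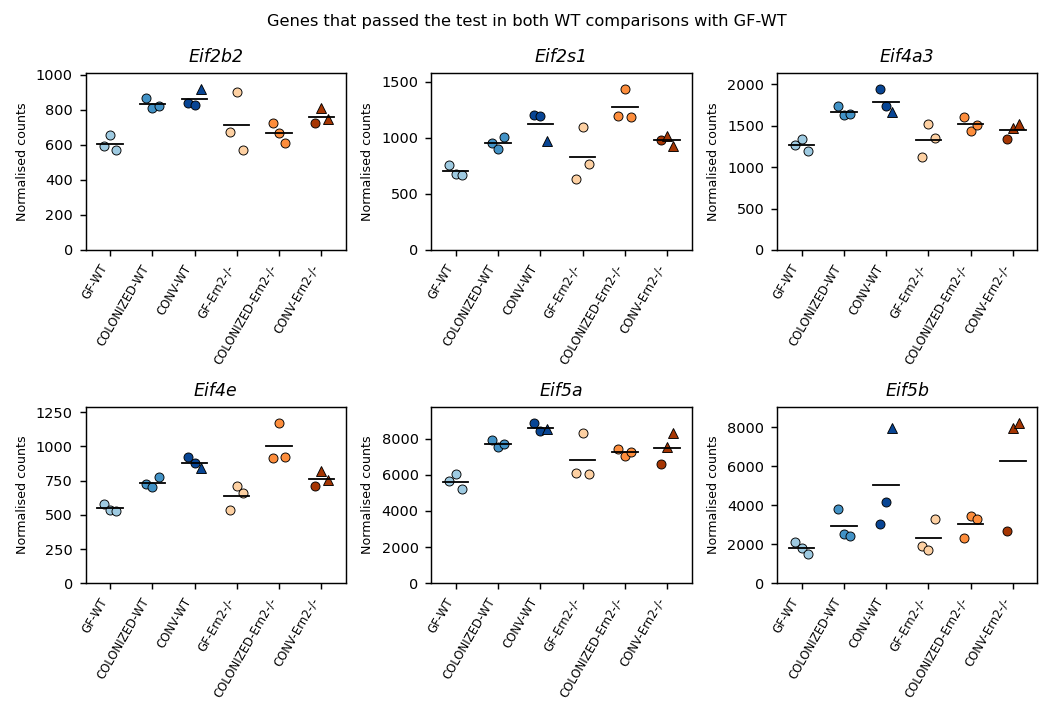
Normalised counts (vertical axes from 0) of the 6 genes called in both WT comparisons, by group, with a point for each library, triangles for the 3 libraries with the fewest counts and lines for group means. In all 6 panels the 3 GF-WT points lie below every COLONIZED-WT and CONV-WT point, for example 526.2 to 583.1 against 705.1 to 920.4 for Eif4e.

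The CONV-WT count of members called was 10 without CONV-WT 3, where 20.8% of all tested genes were called, of which 7 were among the 8 and 9 were higher, with Eif3b (0.49, adjusted p 0.00616) and Eif3d (0.50, adjusted p 0.00131) joining and Eif4a2 lower (-0.60, adjusted p 0.00332). It was 1 without CONV-WT 1 (6.77% of all tested genes called) or GF-WT 1 (5.87%). It was 0 without CONV-WT 2 (4.31%), GF-WT 2 (5.1%) or GF-WT 3 (5.09%). With the Y-linked pattern as a covariate the estimate rested on CONV-WT 2 and 3, which lacked the pattern, as did GF-WT. In that fit 6.64% of all tested genes were called and, of the members, only Eif5b (1.73, adjusted p 7.9e-05). Eif4e was then at 0.65 (adjusted p 0.0289) and Eif5a at 0.58 (adjusted p 0.0413). The proliferation markers summed to 951.9 to 1657 CPM in CONV-WT, with 6 of 12 called higher. Goblet cell markers summed to 41650, 37350 and 6200 CPM in CONV-WT 1, 2 and 3. The part of either list was not tested.

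In 8 of the 48 members (16.7%) the 3 libraries of low depth exceeded every other library of the series, as they did in 5.94% of the 13162 genes with the same count minimum. In no member were they below every other library, which held for 6.31% of those genes. The 8 were Eif5b, Eif3a, Eif5, Eif2s2, Eif2b4, Eif6, Eif4h and Eif4e2, found after their values were seen, and the first 4 are described here. Eif5b stood at 7956 in CONV-WT 3 and 7947 and 8222 in CONV-Ern2-/- 2 and 3, and at 1526 to 4184 in the other 15 libraries. Eif3a stood at 11420, 9916 and 9373 against 3572 to 7298, and Eif5, the GTPase activator of eIF2, at 6289, 7254 and 7050 against 3188 to 5914. Eif2s2 stood at 4450, 5546 and 4862 against 1925 to 3973. The gap to the next library was widest in Eif5b. These are the libraries with the high mesenchymal and low stem cell markers given above, and the part of depth or of other cells in these values was not tested. Within the remaining libraries Eif5b was still higher in CONV-WT than in GF-WT (0.99, as above), whereas the value of Eif2s2 was -0.22 (adjusted p 0.484) and that of Eif5 was 0.16 (adjusted p 0.487). In CONV-Ern2-/- against GF-Ern2-/- the log2 fold change of Eif5b was 1.44 with all libraries and 0.21 (SE 0.48) without the 3, where CONV-Ern2-/- 1 alone remained and was assumed to vary like the other group.

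**Figure D4:**
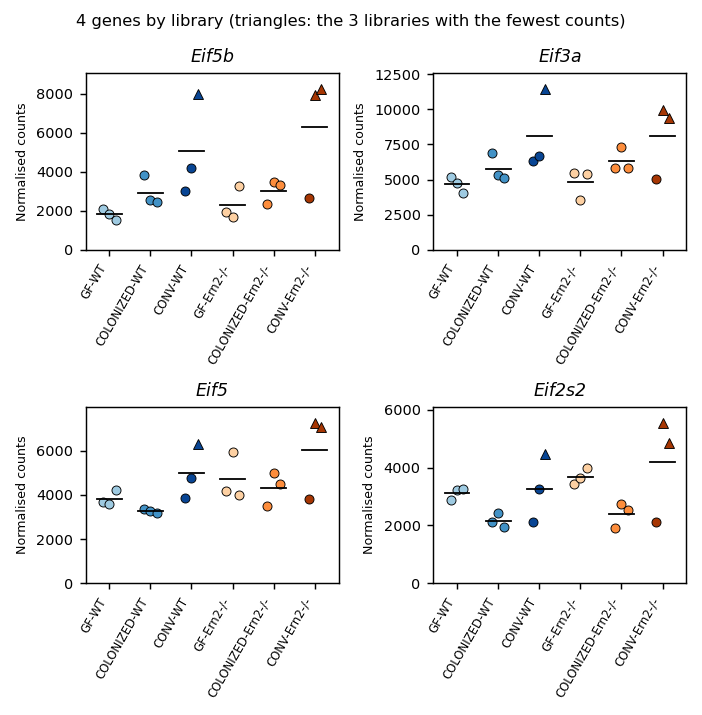
Normalised counts (vertical axes from 0) of Eif5b, Eif3a, Eif5 and Eif2s2 by group, with a point for each library, triangles for the 3 libraries with the fewest counts and lines for group means. The triangles lie above every other point in each panel, at 7947 to 8222 for Eif5b against at most 4184 elsewhere.

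CONV-WT and COLONIZED-WT, the longer and the shorter exposure to microbes, differed in 1 of 48 members, where 0.119% of 13458 tested genes were called. Eif1a had 987.6, 933.6 and 928 in COLONIZED-WT against 1284, 1336 and 1280 in CONV-WT (log2 fold change 0.45, SE 0.10, DESeq2 adjusted p 0.00902). Its groups were far apart, yet the call held only without CONV-WT 3 (adjusted p 0.00719) among the 6 fits that left out a library, and adjusted p was 0.302 to 0.999 in the other 5. edgeR called 0 members and 0% of all genes, with 5 members and 7.11% of all genes at an unadjusted p under 0.05. The members' median was 0.14, with 40 of 48 above 0, against 51.8% of all tested genes above 0.

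To examine the genotype label under each microbial state, libraries labelled Ern2-/- were compared with WT. Members named in these comparisons without a call were chosen after their values were seen. In GF mice DESeq2 called 0 of 48 members and 0.0349% of 17168 tested genes, edgeR called 0 and 0%, and 0 members had an unadjusted p under 0.05 in either tool, against 1.48% of all genes in DESeq2 and 1.54% in edgeR. The median was 0.13 with 40 of 48 above 0, and it was 0.01 without GF-Ern2-/- 2, the library in which 12 members had their highest level of the series. Eef1a1 was at 73700, 102600 and 66330 in GF-Ern2-/- and Eif5a at 6076, 8313 and 6044, with replicate 2 highest in both. That library was the GF-Ern2-/- library with low Ern2 counts. Its surface colonocyte markers summed to 26300 CPM, against 2495 to 11740 in the other 5 GF libraries, and its stem cell markers to 487.2 against 648.4 to 864, and the part of these cells was not tested. With GF-Ern2-/- 1 and 3 left out, the members' median was 0.29. Replicate 2 then stood alone and was assumed to vary like the other group, so no count of called members is given.

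In COLONIZED mice DESeq2 called 1 of 47 tested members, Eif4e3, and 1.37% of 11960 tested genes, while edgeR called 0 members and 0.00786% of all genes, with 19 members and 21.9% of all genes at an unadjusted p under 0.05. Eif4e3 (chr6:99625135-99666771, minus strand) had 169.7, 181.4 and 142.1 in COLONIZED-WT and 255.6, 332.3 and 257.8 in COLONIZED-Ern2-/-, without overlap (0.77, SE 0.19, adjusted p 0.00579). The call was lost in 5 of 6 fits that left out a library (0.0149 to 0.0701), with 0.63 (adjusted p 0.0701) without COLONIZED-Ern2-/- 2. Eef2 and Eif3f lay lower without passing. Eef2 had 63720, 63280 and 58570 in COLONIZED-WT and 53590, 42610 and 48070 in COLONIZED-Ern2-/- (-0.37, adjusted p 0.0472), and Eif3f, an eIF3 subunit, had 7346, 6857 and 5938 against 5250, 3865 and 5207 (-0.50, adjusted p 0.0348). Neither gene overlapped between groups, and COLONIZED-Ern2-/- 2 was lowest in both. The 9 terminal oligopyrimidine members had a median of -0.31, the 5 Eef1 genes -0.31 and the 12 eIF3 subunits -0.12. By contrast, Eif2s1 (0.41, adjusted p 0.045), Eif1a (0.48, adjusted p 0.0346) and Eif4e (0.45, adjusted p 0.0504) lay higher. The median of all members was -0.10, and -0.052 without COLONIZED-WT 1. Goblet cell markers summed to 23070 to 29560 CPM in COLONIZED-WT and 21120, 10890 and 11750 in COLONIZED-Ern2-/- 1, 2 and 3, with 3 of 10 called lower (Clca3, Spink4 and Spdef), and 1 of 7 stem cell markers, Ascl2, was called lower, and the part of these cells was not tested. Groups did not overlap in 9 members that were higher and 18 that were lower, against 16.4% and 14.0% of all tested genes. Without COLONIZED-Ern2-/- 1, which left replicates 2 and 3 with the Ern2 counts given above, 5.26% of all tested genes and 3 members were called: Eif4e3 (0.85, adjusted p 0.00403), Eif5 (0.54, adjusted p 0.000708) and Eef2, which fell by 0.45 on the log2 scale (adjusted p 0.00564).

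In CONV mice DESeq2 called 0 of 48 members and 3.03% of 12625 tested genes, with 5 members at an unadjusted p under 0.05, against 17.3% of all genes, and edgeR called 0 and 0% with 2 members and 15.4% of all genes at that level. The median was -0.19, with 36 of 48 below 0, against 0.02 over all tested genes, and it was -0.32 without the 3 libraries of low depth. All 12 eIF3 subunits were below 0, from -0.30 to -0.0038, with a median of -0.22 and none called. The smallest adjusted p was that of Eef1b2, which had 9574, 9531 and 8550 in CONV-WT and 6105, 6805 and 7624 in CONV-Ern2-/-, lower in every library (-0.43, SE 0.17, adjusted p 0.115), and which was at -0.62 (adjusted p 0.0118) without the libraries of low depth, where CONV-Ern2-/- 1 stood alone for its group. Eef1a1 had 86270, 81570 and 96570 against 58130, 72650 and 69590, also without overlap (-0.40, SE 0.18, adjusted p 0.205). Groups did not overlap in 1 member that was higher and 17 that were lower, against 9.75% and 11.6% of all tested genes. Goblet cell markers summed to 4192 to 5496 CPM in CONV-Ern2-/- and to 41650, 37350 and 6200 in CONV-WT 1, 2 and 3, with 6 of 10 called lower. Surface colonocyte markers summed to 26520, 20600 and 26690 in CONV-Ern2-/- and to 2717, 5032 and 20000 in CONV-WT, and 1 of 7 stem cell markers, Axin2, was called lower. The part of these cells was not tested.

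**Figure D5:**
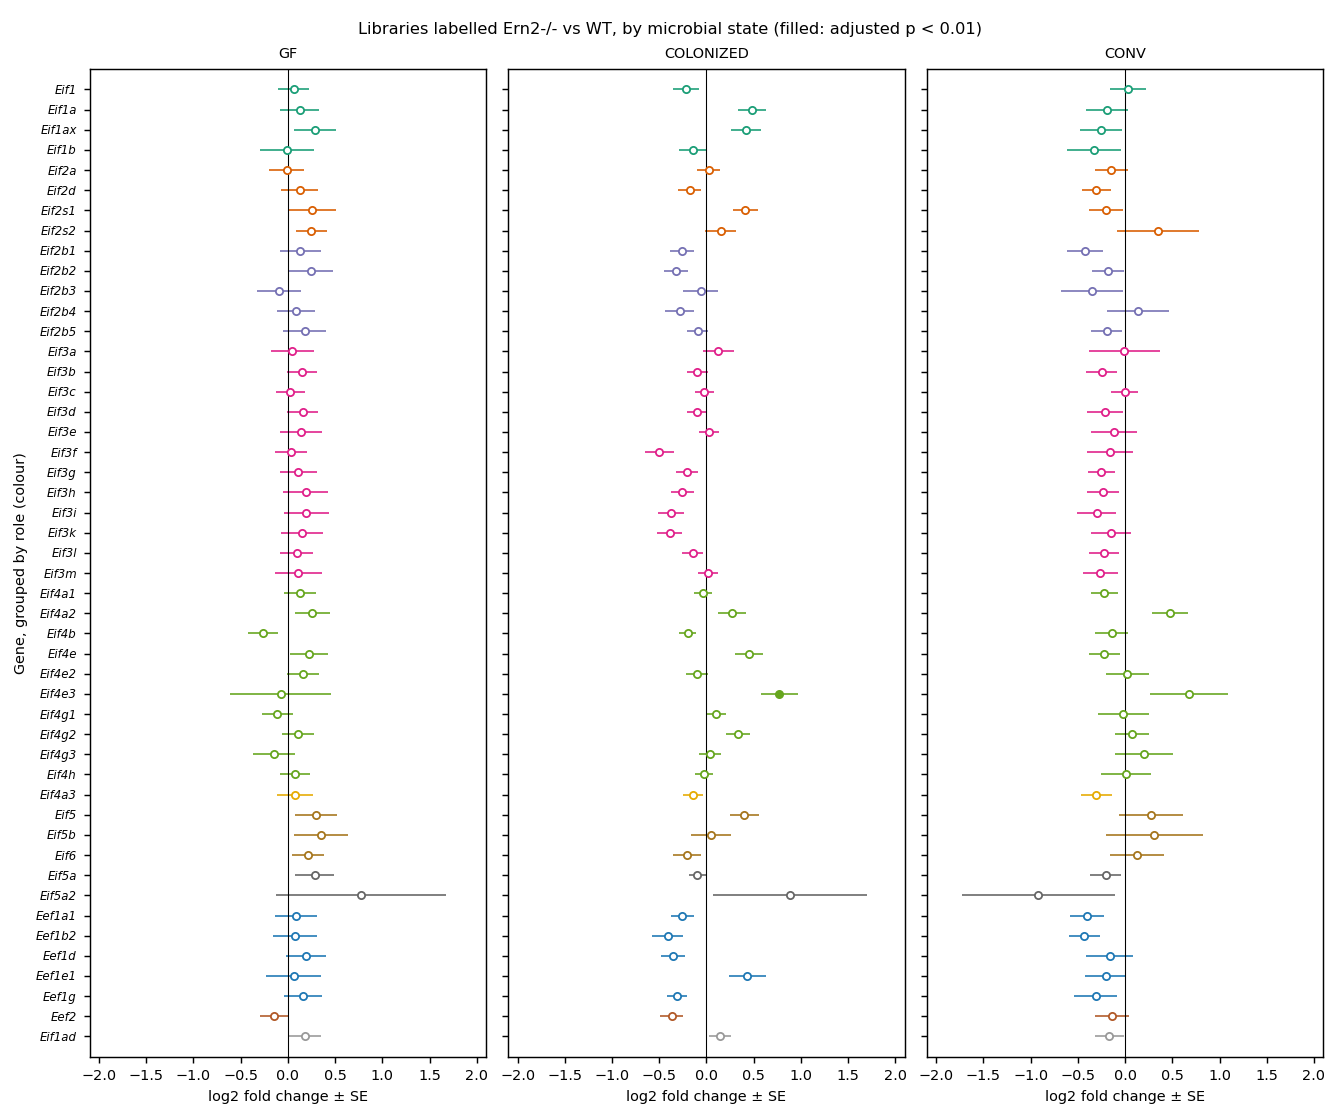
Log2 fold change ± SE (horizontal axes) of the 48 genes between libraries labelled Ern2-/- and WT libraries in GF, COLONIZED and CONV mice, with colours for roles and filled points for a DESeq2 adjusted p under 0.01. A filled point appears for Eif4e3 in COLONIZED mice at 0.77, and the medians are 0.13, -0.10 and -0.19 from left to right.

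Whether the response to microbes differed by label was tested as an interaction. For CONV and GF mice DESeq2 called 0 of 48 members and 0.177% of 13027 genes, with 7 members at an unadjusted p under 0.05, all of them negative, against 8.72% of all genes; edgeR called 0 and 0% with 3 members and 7.42% of genes at that level. The smallest adjusted p was 0.400 for Eif3b, and the members' median was -0.31, with 8 of 48 above 0, against 48.1% of all tested genes. A negative value means that the log2 change with microbes was lower in the libraries labelled Ern2-/- than in WT. Leaving out 1 library gave medians from -0.38 (CONV-WT 3) to -0.18 (CONV-Ern2-/- 1), and leaving out GF-Ern2-/- 1 and 3 gave -0.42 and the 3 libraries of low depth -0.48. For COLONIZED and GF mice DESeq2 called 0 members and 0.0280% of 17884 genes, with 7 members at an unadjusted p under 0.05, again all negative, against 5.76%; edgeR called 0 and 0% with 6 members and 7.26% of genes at that level. The median was -0.18, with 16 of 48 above 0 against 49.9% of all tested genes, and -0.0902 without GF-Ern2-/- 2. In the latter test with GF-Ern2-/- 1 and 3 left out, the values were -0.90 for Eif2b2 and -0.67 for Eif5a. GF-Ern2-/- was then replicate 2 alone, assumed to vary like the other groups, so no call is read from this fit. That library held 8313 of Eif5a, against 6076 and 6044 in the 2 left out, and 899.5 of Eif2b2 against 673.4 and 568. Both interactions use the GF libraries of the comparisons above and so are not independent of them.

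In libraries labelled Ern2-/-, COLONIZED against GF gave 2 called members, where 7.17% of 13943 tested genes were called, and edgeR called 0 members and 0.216% of all genes, with 10 members and 26.2% of all genes at an unadjusted p under 0.05. Eif4e3 had 51.45, 146.4 and 112.6 in GF-Ern2-/- and 255.6, 332.3 and 257.8 in COLONIZED-Ern2-/- (1.44, SE 0.37, adjusted p 0.00233). Its lowest value was in GF-Ern2-/- 1, and the groups did not overlap. Eif4a2 had 5748, 6013 and 5554 against 4229, 3962 and 4097, a clear gap (-0.50, SE 0.14, adjusted p 0.00733). With GF-Ern2-/- 1 and 3 left out, GF-Ern2-/- was 1 library, assumed to vary like the other group, so no call is read from that fit. The values were then 0.92 for Eif4e3, -0.58 for Eif4a2, 0.80 for Eif3a, 0.89 for Eif4g3 and -0.81 for Eif3h. When 1 library was left out, Eif4e3 was called without GF-Ern2-/- 1 (1.11, adjusted p 0.00286) or GF-Ern2-/- 2 (1.81, adjusted p 1.01e-05). Eif4a2 was called without GF-Ern2-/- 2 (-0.45, adjusted p 0.00272) or GF-Ern2-/- 3 (-0.53, adjusted p 0.00833), and in the other fits neither was. Of all tested genes 5.62% were called without GF-Ern2-/- 1, 10.4% without GF-Ern2-/- 2, 8.28% without GF-Ern2-/- 3 and 3.42% to 4.77% in the other fits. The genes called in both WT comparisons can be set beside this: Eif4e was at 533.2, 711.9 and 661.8 in GF-Ern2-/- and 914.9, 1173 and 924.8 in COLONIZED-Ern2-/-, and Eif2s1 at 628.6, 1095 and 768.1 against 1193, 1433 and 1187. Both were higher in every colonized library and neither was called. Without GF-Ern2-/- 2, the highest germ-free library in both, Eif4e (0.76, adjusted p 0.00224) and Eif2s1 (0.88, adjusted p 5.34e-05) were called, with 10.4% of all tested genes. The members' median was -0.10, 0.03 without GF-Ern2-/- 2 and -0.16 without GF-Ern2-/- 1. The proliferation markers summed to 571.3 to 899.8 CPM in GF-Ern2-/-, 1622 to 1835 in COLONIZED-Ern2-/- and 774.2 to 1096 in CONV-Ern2-/-. Their part was not tested.

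CONV-Ern2-/- against GF-Ern2-/- gave 0 called members in DESeq2, where 4.33% of 13404 tested genes were called, with 3 members at an unadjusted p under 0.05, against 19.6%; edgeR called 0 and 0.0325% with 3 members and 19.8% of genes at that level. Eif5b was nearest, at 1936, 1695 and 3270 in GF-Ern2-/- and 2674, 7947 and 8222 in CONV-Ern2-/- (1.44, adjusted p 0.0138). The groups overlapped, and the high values were those of the 2 libraries of low depth. Without CONV-Ern2-/- 1, where 6.12% of all tested genes were called, the members called were Eif5b (1.81, adjusted p 1.02e-05), Eif3a (1.00, adjusted p 0.00457) and Eif2b4 (0.71, adjusted p 0.00998), a subunit of eIF2B. Without GF-Ern2-/- 2, where 7.14% of all tested genes were called, it was Eif4e3 (1.74, adjusted p 0.00108). Without GF-Ern2-/- 3, where 4.04% were called, it was Eif5b (1.79, adjusted p 0.00507). CONV-Ern2-/- against COLONIZED-Ern2-/- gave 0 called members, where 8.59% of 13098 tested genes were called, with 8 members at an unadjusted p under 0.05, against 30.2%; edgeR called 0 and 0.282% with 7 members and 31.4% of genes at that level. Here too Eif5b was nearest (1.05, adjusted p 0.0285). Without CONV-Ern2-/- 1, which left the 2 libraries of low depth, 18.4% of all tested genes and 8 of 48 members were called, 7 of them higher, among them Eif5b (1.42, adjusted p 1.15e-10) and Eif2s2 (1.12, adjusted p 1.95e-07).

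Other genes of the pathway were taken from written lists. The list of cytosolic aminoacyl-tRNA synthetases, which charge tRNAs, held 22 genes, among them Aimp1 and Aimp2, which are not synthetases. Of the 22, 10 were called higher in COLONIZED-WT than in GF-WT, where 9.35% of all tested genes were, and none was called lower. The median of the list was 0.38. Cars, which charges cysteine tRNA, had 417.1, 368.5 and 449.8 in the GF-WT libraries. The COLONIZED-WT libraries held 798.6, 595 and 752.5 and the CONV-WT libraries 861.9, 845.5 and 945.9. It was higher without overlap in both (0.81 and 1.09), and in CONV-WT 3 of the 22 were called, all higher, where 5.68% of all tested genes were. Of the 8 genes on the list of eIF4E and eEF2 regulators 2 were called in each WT comparison, both lower, where 8.97% of all tested genes were called lower in COLONIZED-WT and 5.28% in CONV-WT. Pdcd4, which sequesters eIF4A, went from 4124, 3830 and 4095 in GF-WT to 2209, 2834 and 2123 in COLONIZED-WT (log2 fold change -0.74), and it was at 2341, 2288 and 2111 in CONV-WT (-0.85). Eef2k, the kinase that inactivates eEF2, went from 2013, 1859 and 2124 in GF-WT to 1355, 1564 and 1134 in COLONIZED-WT (-0.56), with 1322, 942.2 and 1026 in CONV-WT (-0.87). Neither gene overlapped between groups in either comparison. Eif4ebp1, which binds and blocks eIF4E, lay the other way without a call, at 252, 273.9 and 225.6 in GF-WT and 376.5, 328.3 and 338.2 in COLONIZED-WT (0.48, adjusted p 0.0136) and at 315, 403 and 399.9 with a conventional microbiota (0.56, adjusted p 0.0332). It is named after its values were seen. Tsc1 (-0.61) and Tsc2 (-0.57), which restrain mTORC1, were called lower in CONV-WT, the only calls among 10 mTORC1 genes, and Dph3 (0.61), which helps to build the diphthamide of eEF2, was called higher there. Abce1, which recycles ribosomes, was called higher in COLONIZED-WT (0.52), as were Mars (0.81) and Vars (0.80), and Nars (0.63) and Tars (0.56) completed the synthetases called in CONV-WT. None of the 4 eIF2alpha kinases was called in either WT comparison. Cytosolic ribosomal protein genes were called higher in 11 of 81 tested with colonization and 14 of 81 in CONV-WT, beside the same 9.35% and 5.68% of all tested genes, and none was called lower. In libraries labelled Ern2-/-, CONV against GF called Pdcd4 (-1.20), Sesn2 (1.01), a stress-induced restraint on mTORC1, and Cars (0.93). COLONIZED against GF called Eif2ak1 (-0.63), the heme-regulated eIF2alpha kinase, Eif4ebp3 (-1.08), an eIF4E binding protein, Abce1 (0.84) and Cars (0.68). CONV against COLONIZED called Eif2ak3 (-1.20), the eIF2alpha kinase of ER stress, Eif4ebp3 (0.95), Pdcd4 (-0.54), Sesn2 (0.97) and Abce1 (-0.66). Eif2ak3 was at 111.4, 339.9 and 245.6 in the 3 libraries of low depth and at 543 or more in the other 15. Without the 3, where CONV-Ern2-/- 1 stood alone, its value was -0.62 (adjusted p 0.304) and that of Eif4ebp3 0.56 (adjusted p 0.137), while Sesn2 was still called (1.33, adjusted p 7.1e-05) and Pdcd4 and Abce1 were not (-0.49 and -0.56). In CONV-Ern2-/- against GF-Ern2-/- none of the 3 was then called (-1.16 for Pdcd4, 1.37 for Sesn2 and 0.48 for Cars). In the comparisons of labels and the interactions no gene was called on the lists of kinases, phosphatase subunits, regulators, mTORC1, poly(A) binding, release, hypusine, synthetases or mitochondrial factors, and 4 of 79 ribosomal protein genes were called lower in COLONIZED-Ern2-/- than in COLONIZED-WT, where 0.853% of all tested genes were.

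Over the 18 libraries most members varied little. The ratio of the highest to the lowest library was under 2 for 30 of 48 members, with a median of 1.83 and a minimum of 1.31. It was 5.39 for Eif5b, 3.20 for Eif3a and 2.88 for Eif2s2, highest in libraries of low depth, and 2.28 for Eif2s1 and 2.23 for Eif4e, whose highest library was COLONIZED-Ern2-/- 2. The lowest level of 16 members was in GF-WT 3, and of 11 members in COLONIZED-Ern2-/- 2. The median of the members relative to the GF-WT mean, on the log2 scale, was -0.09 in GF-WT 3, 0.11 to 0.14 in COLONIZED-WT, 0.27 to 0.31 in CONV-WT and 0.28 in GF-Ern2-/- 2. It was -0.07, 0.15 and 0.23 in CONV-Ern2-/- 1, 2 and 3. Of the 48 members 33 were called in none of the 9 comparisons between groups, among them 10 of the 12 eIF3 subunits, Eef1a1, Eef2 and Eif6.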

How the data were processed

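Per the labels and the study's methods, the authors prepared stranded libraries from mRNA, read them for 75 cycles from a single end and aligned them to mm10 with STAR inside VIPER. The deposited values are raw read counts for each gene symbol; versions and the strand setting of the counting are not given in the sources used here. For each of 9 comparisons DESeq2 1.42.0 (R 4.3.3, Wald test, default filters, no shrinkage) was run on the 6 libraries concerned, and for 2 interactions on 12 libraries, with Benjamini-Hochberg adjustment over all genes tested and a call at adjusted p under 0.01, as in the study's methods. edgeR 4.0.16 (quasi-likelihood test), other scalings, a low-count filter, a fit over 18 libraries, a replicate block, the Y-linked pattern as a covariate and leaving out libraries were alternatives. The fits were tested on simulated data. Normalised counts use DESeq2 size factors of 18 libraries; TPM uses exon lengths of GENCODE (mm10), found for 94.1% of symbols and for 48 of 48 members. Where an overlapping gene lies on the other strand (Rev1 for Eif5b, Rfc4 for Eif4a2), reads may not be separable. Some members also overlap a gene on the same strand, for example Gm20696 for Eif4e3 and Gm49346 for Eif4a2, where strand cannot separate reads. Of the 75-base stretches of Eif4e3, 9.5% also occur in another gene. The labels do not say whether same-numbered libraries pair, and no 2 libraries of a group were duplicates. A gene was named by a rule: up to 6 called members with the largest changes per comparison, 12 anchor genes where most members were called, and restricted paralogs. Companions were named if called and among the 3 largest of their list. The members and lists were chosen with earlier results of these data known. p-values measure the spread between 3 mice per group.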

Additional observations from a re-analysis of the deposited data

Results flagged for a closer look

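Eif4e, the cap-binding protein, and Eif1ad, an eIF1A domain protein, moved in opposite directions with the genotype label in COLONIZED and CONV mice, and in both states their groups did not overlap. For Eif4e the log2 fold change was 0.45 in COLONIZED mice (723, 705.1 and 779.5 in WT, 914.9, 1173 and 924.8 in libraries labelled Ern2-/-) and -0.22 in CONV mice (920.4, 882 and 845.5 against 710.1, 817.6 and 753.3). For Eif1ad it was 0.14 (755.1, 738.9 and 719.2 against 767.6, 822.1 and 862.6) and -0.17 (783.6, 806.9 and 743.2 against 688.2, 688.8 and 703.6). None of these values was called, and the difference between the states was not tested.

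Eef1a2, which was left out for its low counts, had 19 counts in COLONIZED-Ern2-/- 2, above the 3 counts that a library at 0 allows, with 1 count in GF-WT 2 and 0 in the other 16 libraries. The whole signal is that of 1 library.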

How the results depend on the processing

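Depth limits Eif5a2 and libraries CONV-WT 3 and CONV-Ern2-/- 2 and 3; 3 libraries per group limit every test. Counts of members called by DESeq2 are given for COLONIZED-WT and CONV-WT against GF-WT (11 and 8 as reported), COLONIZED-Ern2-/- against COLONIZED-WT (1) and against GF-Ern2-/- (2), and CONV-WT against COLONIZED-WT (1). edgeR called 0 in each. With 1 fit over 18 libraries they were 5, 13, 0, 3 and 0, where 8.98%, 14%, 0.18%, 8.52% and 0% of all tested genes were called. With the replicate number as a block they were 7, 1, 0, 1 and 0, where 16.3%, 9.4%, 1.55%, 7.2% and 0.109% of all tested genes were called. The block gave 2 in CONV-Ern2-/- against GF-Ern2-/- (4.09% of all tested genes) and 1 against COLONIZED-Ern2-/- (7.35%), with 0 as reported. In no comparison did all 3 same-numbered pairs correlate above 0.1, although single pairs reached 0.581, so the numbers were not taken as pairs. With the Y-linked pattern as a covariate COLONIZED-WT against GF-WT rested on COLONIZED-WT 2 alone, so no count is given for it. In the other comparisons they were, in the same order, 1, 0, 1 and 0. There 6.64%, 1.03%, 7.13% and 0.085% of all tested genes were called. Library total scaling gave 5 in CONV-WT against GF-WT (9.8% of all tested genes) and 0 in CONV-WT against COLONIZED-WT (0.0922%), where TMM scaling also gave 0 (0.0993%). CONV-Ern2-/- against GF-Ern2-/- gave 1 over 18 libraries (6.68% of all tested genes) and 1 with the Y-linked covariate (4.01%), and against COLONIZED-Ern2-/- 1 over 18 libraries (3.32%). Leaving out GF-Ern2-/- 1 and 3 left 1 library in that group, so counts of called members are not given for it.

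Leaving out 1 library gave 2 to 10 in COLONIZED-WT against GF-WT (9.22% to 20.2% of all tested genes called) and 0 to 10 in CONV-WT against GF-WT (4.31% to 20.8%). It gave 0 to 3 in COLONIZED-Ern2-/- against COLONIZED-WT (0.617% to 5.26%), 0 to 4 in COLONIZED-Ern2-/- against GF-Ern2-/- (3.42% to 10.4%) and 0 to 1 in CONV-WT against COLONIZED-WT (0.00597% to 1.59%). In CONV-Ern2-/- it gave 0 to 3 against GF-Ern2-/- (1.9% to 7.14%) and 0 to 8 against COLONIZED-Ern2-/- (3.29% to 18.4%). In CONV and GF mice the label comparison gave 0 members under each alternative that kept more than 1 library per group, as did the CONV interaction. Of all tested genes 0% to 12.4% were called in CONV mice, 0% to 0.0762% in GF mice and 0% to 2.23% in the interaction. With the Y-linked covariate the label comparison rested on CONV-WT 1 alone in CONV mice and on GF-Ern2-/- 3 alone in GF mice. Leaving out the 3 libraries of low depth together was chosen after seeing the data.

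In COLONIZED-WT against GF-WT, uncalled values near 0 changed sign. Eif6 (-0.0011) was 0.0137 in edgeR, 0.0027 with a filter on low counts, 0.0124 with TMM, 0.0538 with library totals and 0.1613 with the Y-linked covariate, and -0.0881 to 0.067 when 1 library was left out. Eef1a1 (-0.0078) was 0.0067, 0.0052 with TMM, 0.0469 and 0.0259, and -0.0478 to 0.061. The other members followed through these alternatives kept their direction, and they did not include Eif3c, Eif4a2 or the companion genes. Library totals turned the sign of the members' median in COLONIZED-Ern2-/- against GF-Ern2-/- (from -0.10 to 0.04) and in CONV-Ern2-/- against COLONIZED-Ern2-/- (from 0.04 to -0.13). In CONV-Ern2-/- against CONV-WT they moved it from -0.19 to -0.29. The cause of these changes was not tested.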
